A study of Mus musculus with 2 samples.

Results

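Transcripts that the annotation marks as targets of nonsense-mediated decay (NMD) were described across both libraries of a stretch experiment in mouse macrophage-like cells. Members were selected on their biotype, nonsense_mediated_decay, and on a count of at least 20 over the control and stretched libraries together. A total of 1667 models from 1369 genes met that rule, out of 7053 NMD models and 142438 transcripts listed. Of the other NMD models, 2751 had 1 to 19 counts and 2635 were listed at 0. The rule used the summed count, so the level of the members is a description and not a result. At the limit, 31 NMD models had 19 counts, such as Glrx2 (7 in control and 12 in stretched), and 34 had 20, such as Uxs1 (8 and 12).

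The cells were of the cultured macrophage line that the labels spell RAW246.7. Control cells had spent 24 h under a strain described as normal, whose size is not stated, and stretched cells 24 h under 20% elongation. Both groups were the same line with no further allele or agent named. There was 1 library per group, so the variation between cultures is unknown. Intervals cover counting error only, and that at most in part, since amplified fragments without molecular identifiers are not independent molecules. They treat estimated counts as observed fragments and leave out the error of assigning fragments to models.

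NMD is a surveillance pathway that degrades messenger RNAs whose stop codon lies well upstream of an exon junction. The exon junction complex left behind by splicing marks such a junction, and the UPF and SMG proteins recognise a ribosome that stops before it and recruit decay enzymes. Many splicing regulators hold down their own levels in this way: SR proteins and hnRNP proteins promote or repress a conserved "poison" exon in their own transcripts, which carries an early stop codon. A steady-state count of an NMD transcript therefore depends on how often it is made and on how fast it is degraded, and these cannot be told apart in these libraries.

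The sequences that make such a transcript recognisable are shown for the splicing regulators and for a polyamine enzyme described below, because each of these members differs from the coding models of its gene by an exon of its own that holds the stop. Each line runs from the first base of that exon, 5' to 3', to the end of its reading frame, in lower case with the stop codon in capitals. The letters come from the GENCODE M21 transcripts, matched by transcript identifier and length.
Srsf3: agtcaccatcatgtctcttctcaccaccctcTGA
Srsf7: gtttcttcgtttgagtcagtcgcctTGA
Tra2a: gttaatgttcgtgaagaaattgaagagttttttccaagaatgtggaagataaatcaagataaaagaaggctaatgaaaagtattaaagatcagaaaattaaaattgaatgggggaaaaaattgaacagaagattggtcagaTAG
Tra2b: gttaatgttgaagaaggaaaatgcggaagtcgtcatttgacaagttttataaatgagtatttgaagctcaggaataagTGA
Hnrnpl: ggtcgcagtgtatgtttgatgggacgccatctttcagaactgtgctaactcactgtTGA
Hnrnpll: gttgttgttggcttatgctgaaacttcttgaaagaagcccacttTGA
Rbm39 (exon 3): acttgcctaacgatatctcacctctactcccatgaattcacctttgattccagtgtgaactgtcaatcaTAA
Rbm39 (exon 14): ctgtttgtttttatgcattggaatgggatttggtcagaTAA
Rbm39 (exon 4): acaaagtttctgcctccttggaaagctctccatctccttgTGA
Snrpb: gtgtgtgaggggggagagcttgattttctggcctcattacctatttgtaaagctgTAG
Sat1: gttacagtctcTAG
In Srsf3 the exon was exon 4 of 7 and 456 bases long, and the stretch shown covered transcript bases 499 to 532. In Srsf7 it was exon 4 of 9, 460 bases long, with bases 492 to 519 shown. The paralogs Tra2a and Tra2b each carried theirs as exon 2, of 306 and 276 bases, and both exons opened with the same 9 bases, gttaatgtt. The Hnrnpl exon was exon 6 of 13 (70 bases) and the Hnrnpll exon exon 7 of 14 (83 bases). The stretches of Hnrnpl and Hnrnpll covered transcript bases 548 to 606 and 1185 to 1231. The Rbm39 stretches, from 3 transcripts of 1 gene at chr2:155989159-156022158 on the minus strand (GRCm39), lay in exons of 73, 51 and 72 bases. The Snrpb exon was exon 3 of 8, in the gene at chr2:130013555-130021323 on the minus strand. In Sat1, at chrX:153996128-153999445 on the minus strand, the exon of 110 bases ended its reading frame within 14 bases.

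Structure was read for 1658 members found in GENCODE M21, of which 1653 had the deposited length. A stop codon was annotated for 1651. It was TGA in 932, TAG in 365 and TAA in 354. The stop lay more than 50 bases before the last exon junction in 1649 of them, which is close to the criterion the annotation itself uses, at a median distance of 556 bases. The median member was 2293 bases long with 10 exons and a reading frame of 417 bases. In 315 members the stop lay in an exon that no protein-coding model of the gene overlaps, with a median exon length of 119 bases, and in 283 in other sequence outside the coding models. In 915 the stop fell in sequence that coding models share, and in 137 it was the same stop as in a coding model. The median member had only 73 bases that lay in no protein-coding model of its gene, and 526 had none, so for these the fragments could be told from coding fragments only by junctions or ends.

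Estimated counts summed to 14769100 in control and to 13391645 in stretched. Of 10 macrophage markers, 9 exceeded 1 FPKM (fragments per kilobase, corrected for sequencing depth) in both libraries, with a summed 2763 FPKM in control and 3939 in stretched. Mertk had 3 counts in control and 0 in stretched. The labels name the tissue as synovial membrane, but 8 synovial fibroblast markers summed to 0.254 and 0.200 FPKM, with 5 of 8 at 0 in both libraries, among them Col1a2, Col3a1 and Pdgfra. The 4 chondrocyte markers summed to 0.822 and 0.793 FPKM and the 4 endothelial markers to 0.356 and 0.323.

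NMD transcripts took a slightly smaller part of the counts in stretched than in control. Members held 260061 counts in control, or 1.76% of the library, and 233199 in stretched, or 1.74%. The Wilson 95% intervals of these shares, 1.75 to 1.77 and 1.73 to 1.75, do not overlap but hold counting error alone. In such bulk libraries, fewer cells that make a transcript and less of it per cell cannot be told apart. Their median level was 1.30 FPKM in control and 1.33 in stretched, with the highest at 513 and 710 FPKM. For 1638 members the protein-coding transcripts of the same gene had at least 20 counts, so that the NMD transcript could be set against them. Over the 1340 genes of these members, NMD transcripts made up 14.0% of NMD plus protein-coding counts in control (interval 13.9 to 14.0) and 13.7% in stretched (interval 13.6 to 13.7). The share of the median member was 7.85% in control and 7.31% in stretched.

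The 12 members with the most counts showed large and small differences side by side. Ctnnb1, which encodes beta-catenin, had 47.7 FPKM in control and 121.6 in stretched for its NMD transcript, and 59.1 and 23.3 for its summed coding transcripts. In counts this was 2768 and 6274 against 3438 and 1158, so the NMD share, with an exact Clopper-Pearson interval, stood at 44.6% (95% interval 43.4 to 45.8) in control and at 84.4% (95% interval 83.6 to 85.2) in stretched. NMD and coding counts of Ctnnb1 moved in opposite directions, and the gene count differed by only 0.38 on the log2 scale. The NMD model of Ctnnb1 has 4 bases of its own outside the coding models.

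**Figure D1:**
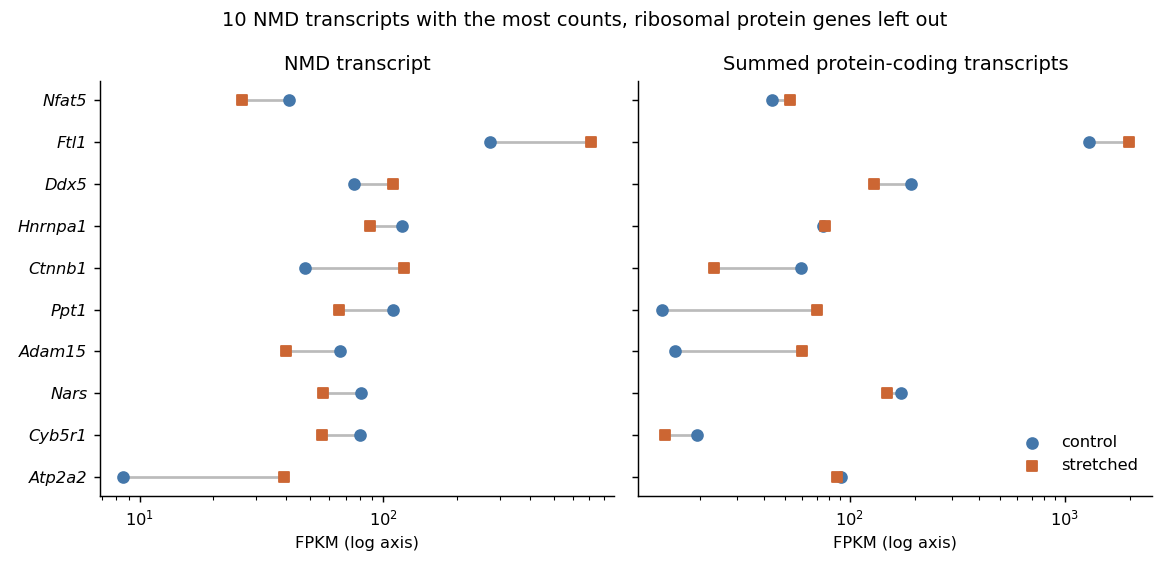
FPKM (log axis) of the 10 NMD transcripts that are not from ribosomal protein genes among the 12 with the most counts (left) and of the summed protein-coding transcripts of the same genes (right), with circles for control and squares for stretched, 1 library each. Ctnnb1 and Atp2a2 were higher in stretched on the left, while the coding sums of Ppt1 and Adam15 were higher in stretched on the right.

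Nfat5, the transcription factor of the response to osmotic stress, had 9035 NMD counts in control and 5145 in stretched, with coding counts of 5748 and 7023. Its share was 61.1% in control and 42.3% in stretched, and its stop lay in an own exon of 62 bases. Ppt1, a lysosomal thioesterase, had 4615 and 2454 NMD counts against 497 and 2398 coding counts. Adam15, a membrane metalloprotease, had 4226 and 2258 against 727 and 2516. In both genes the NMD transcript held most of the counts in control, at 90.3% and 85.3%, and about as many as the coding transcripts in stretched, at 50.6% and 47.3%. Atp2a2, the calcium pump of the endoplasmic reticulum, went the other way, with 796 and 3217 NMD counts and shares of 10.7% and 36.4%. Cyb5r1, a cytochrome b5 reductase, kept its split, with 84.6% in control and 84.3% in stretched, while both its NMD and coding counts were lower in stretched (3180 to 1968 and 581 to 367).

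Ftl1, the ferritin light chain, had 4224 NMD counts in control and 9736 in stretched, and its coding counts were also higher, at 20417 and 27927. Rpsa, a ribosomal protein, had 9230 and 6292 NMD counts and shares of 25.3% and 23.7%. Nars, the asparaginyl-tRNA synthetase, had shares of 30.2% and 26.1%. Ftl1, Rpsa and Hnrnpa1 have near-identical copies elsewhere in the mouse genome, so their counts are uncertain. The same holds for members whose gene overlaps another counted gene on the same strand, which were 355 in all and include those of Ctnnb1, Ddx5, Atp2a2, Ftl1 and Rpsa above, and of Pold1, Vps53, Kif20b, Cnot3, Slc10a7, Mindy3, Tia1, Luc7l, Eif4a2, Rpl3, Rpl27a, Slc2a1 and Sp100 below.

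Across all members, the split between NMD and coding transcripts differed widely between the libraries, and about as widely as the split among coding transcripts. The log2 ratio of NMD to coding counts was taken as different when it changed at least 2-fold and its exact conditional 95% interval excluded 1. By that rule the ratio was higher in stretched for 383 members, lower for 406 and neither for 849, that is 48.2% of 1638. When each protein-coding transcript was set against the other coding transcripts of its gene in the same way, 47.6% of 12988 differed, so the NMD share is near the background. Retained-intron transcripts set against the coding sum differed in 30.9% of 5423, and processed transcripts without a reading frame in 34% of 1225. The median log2 difference of the ratio was -0.08 over NMD members, -0.07 over retained introns and -0.01 over the coding transcripts. For coding transcripts a median near 0 is largely given by the design. Where a gene has only a pair of coding models, both enter, with equal and opposite ratios, and the 12988 include such pairs. Its median size, regardless of sign, was 1.00 for NMD members, 0.97 for coding transcripts and 0.69 for retained introns.

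**Figure D2:**
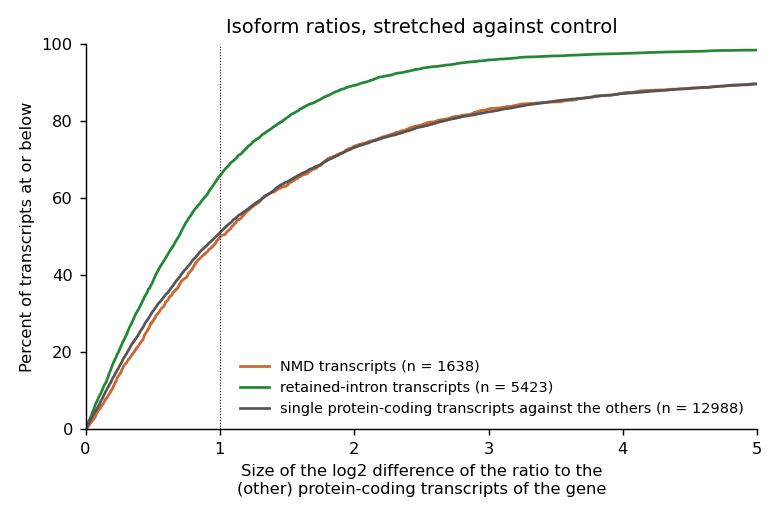
Cumulative percent of transcripts (vertical) by the size of the log2 difference of their ratio to the protein-coding transcripts of the gene, stretched against control (horizontal, 1 library each). The curves of NMD transcripts and of coding transcripts nearly coincide, with medians of 1.00 and 0.97, and retained introns lie to the left with a median of 0.69; the dotted line marks a 2-fold difference.

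By the count divided by the scaled library total, under the same size and interval rule, 359 members were higher and 349 lower, 42.5% of 1667, against 26.1% of all 29251 transcripts with at least 20 counts and 24.7% of protein-coding ones. The 24.7% includes coding transcripts whose gene has no other counted coding transcript. Where the other coding transcripts of the gene had at least 20 counts, 4268 of 12988 coding transcripts differed by level. Of the 1638 members set against coding counts, 701 did. The median log2 difference was -0.02 over members and -0.01 over all transcripts. At the level of whole genes the same loci hardly differed: of the 1369 genes with a member, 13 were higher and 3 lower, or 1.17%, against 5.06% of 12772 genes. These sets of genes were not matched for count. The summed coding transcripts alone differed more often, with 54 higher and 35 lower among 1340 genes. Of the 789 members whose ratio differed, the sum of NMD and coding counts stayed within 1.5-fold in 688, or 87.2%, compared with 88.9% of all 1638. In 601 of the 789 the coding transcripts moved in the opposite direction to the NMD transcript. The same held for 4921 of the 6184 single coding transcripts whose ratio differed and for 1125 of 1677 retained-intron transcripts, so such opposite movement was not limited to NMD transcripts. From FPKM with 1 added, 185 members were at least 2-fold higher and 159 lower by level, and 225 and 241 by ratio. No interval was used there, and adding 1 understates differences of low transcripts. Among the 488 members with more than 200 bases of their own, 91 ratios were higher and 92 lower. How far the differences stem from the assignment of fragments to models and how far from the cells was not tested.

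**Figure D3:**
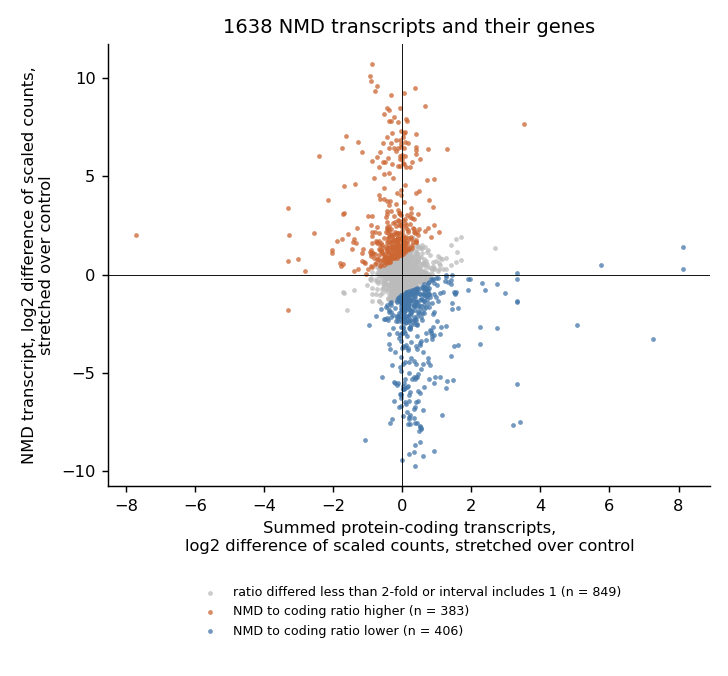
Log2 difference of scaled counts, stretched over control, for 1638 NMD transcripts (vertical) and for the summed protein-coding transcripts of their genes (horizontal), each point 1 NMD transcript from 1 library per group. Points spread along the vertical axis far more than along the horizontal one, and 383 (orange) had a higher and 406 (blue) a lower ratio.

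The share of members whose ratio differed did not fall with more counts: 46% of members with 20 to 49 counts differed, 45.2% with 50 to 99, 51.7% with 100 to 499 and 48.7% with 500 or more. It was lower where the NMD transcript had more sequence of its own. Among 525 members with 0 bases outside the coding models 54.7% differed, and among 290 members with more than 500 such bases 34.8% did. By where the stop lay, 52% differed among those with the stop in shared sequence, 45.7% with an own exon, 43% with other own sequence and 37.3% with the same stop as a coding model.

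**Figure D4:**
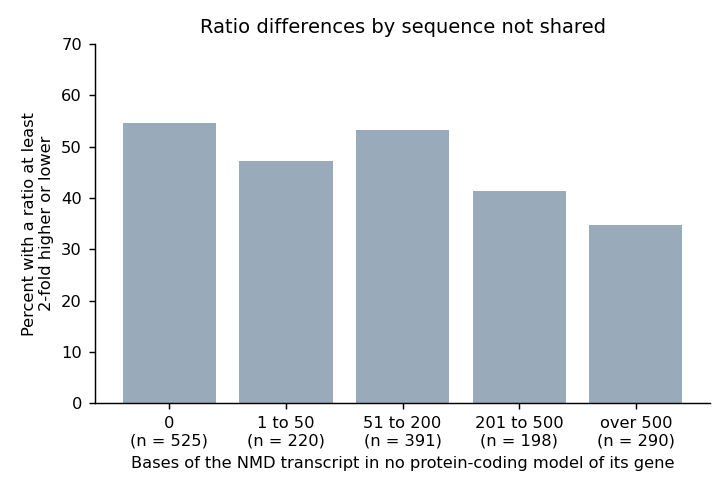
Percent of NMD transcripts whose ratio to the coding transcripts differed at least 2-fold between the libraries (vertical), by the number of bases that lie in no protein-coding model of the gene (horizontal, with the number of transcripts). The share was 54.7% with 0 such bases, 53.2% with 51 to 200 and 34.8% with more than 500.

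The widest ratios belonged to members that were at or near 0 in 1 library. In 131 members 1 library had 0 counts, 63 of them in control and 68 in stretched, and 37 of these had at least 100 counts in the other. Such a member passed the count minimum through the other library alone, so that it differs is given by the rule. Slc35c2, a solute carrier of the nucleotide-sugar transporter family, had 0 NMD counts in control and 774 in stretched. With 0 NMD counts beside 1585 coding counts, the exact 95% interval of the share in control reached up to 0.232%. That limit takes the estimated counts as observed and leaves out the error of assigning fragments to models. The share in stretched was 49.5% (95% interval 47.0 to 52.0). Within the same gene the main coding model of 1991 bases had 1515 counts in control and 0 in stretched, another of 2008 bases 7 and 635, and the gene count differed by 0.04 on the log2 scale. The NMD model of Slc35c2 has 0 bases of its own.

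Acap2, which activates the GTPase activity of Arf proteins, had 3667 NMD counts in control and 69 in stretched. Its coding counts were 395 and 3650, of which the longest coding model had 254 and 3318. The share was 90.3% (95% interval 89.3 to 91.2) in control and 1.86% (95% interval 1.45 to 2.34) in stretched, a log2 difference of the ratio of -8.93 (95% interval -9.31 to -8.54), while the summed counts differed by -0.00. Almost the whole locus was assigned to the NMD model in control and to a coding model in stretched.

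Of the 12 widest higher ratios, 11 were at 0 in control: Slc35c2, the splicing factor Plrg1 (501 counts in stretched), the exosome nuclease Dis3 (420), the ubiquitin ligase scaffold Cul2 (354), the transcription factor Camta2 (331), the tethering factor Vps53 (304), the kinase Map2k3 (274), the calcium-binding protein Rcn2 (262), the initiation factor Eif2d (162), the deubiquitinase Mindy3 (150) and the phosphorylase kinase subunit Phkg2 (134). Pold1, the catalytic subunit of DNA polymerase delta, was the other, with 181 and 682 NMD counts and 1500 and 6 coding counts. The gene count of Pold1 differed by -0.08 on the log2 scale, with 1771 in control and 1541 in stretched. The sum of its NMD and coding counts differed by -1.16, so much of the gene count in stretched lay outside these models. Of the 12 widest lower ratios, 9 were at 0 in stretched: the kinase Sgk3 (472 counts in control), the Hippo pathway adaptor Mob1a (375), the GPI transamidase subunit Gpaa1 (325), the guanine nucleotide exchange factor Arhgef11 (303), the kinesin Kif20b (284), the deadenylase subunit Cnot3 (277), the transporter Slc10a7 (221), the telomere protein Ctc1 (204) and the RNA editing enzyme Adarb1 (110). The remaining ones were Acap2, the microtubule-associated Map1s (294 and 1) and the tRNA methyltransferase Trmo (69 and 6).

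Members of SR protein genes, the serine- and arginine-rich splicing regulators, were more often lower than higher in stretched. Of 14 members from 12 genes, 6 had a lower ratio, 1 a higher one and 7 neither, with a median log2 difference of -0.93; over all 1638 members 24.8% were lower and 23.4% higher, with a median of -0.08. None of the 15 counted SR protein genes differed 2-fold at the gene level, where 5.06% of all 12772 genes did. Srsf3, at chr17:29251602-29262347 on the plus strand (GRCm39), had 907 counts of its poison-exon transcript in control and 355 in stretched, beside 2623 and 2538 coding counts. Its NMD share was 25.7% (95% interval 24.3 to 27.2) in control and 12.3% (95% interval 11.1 to 13.5) in stretched, a log2 difference of the ratio of -1.30 (95% interval -1.50 to -1.11). The coding counts of Srsf3 were nearly equal. The NMD transcript has 456 bases outside the coding models. Retained-intron models of Srsf3 were lower in stretched in part, with 1518 and 848 counts in one and 61 and 21 in another. A further one had 119 and 114.

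Srsf7, at chr17:80507509-80514736 on the minus strand, had 738 NMD counts in control and 138 in stretched, with coding counts of 1268 and 1354. Its share was 36.8% (95% interval 34.7 to 38.9) in control and 9.25% (95% interval 7.83 to 10.8) in stretched, with a log2 difference of the ratio of -2.51 (95% interval -2.81 to -2.22). As in Srsf3, the coding sum was close in both libraries, though its models changed places, the longest with 277 counts in control and 25 in stretched and another with 406 and 921. Retained-intron models of Srsf7 went both ways, with 288 and 596 counts in one, 336 and 236 in another and 116 and 31 in another. Tra2a, a splicing activator at chr6:49220858-49240967 on the minus strand, had 526 and 363 NMD counts, and coding counts of 230 and 1047. Its share was 69.6% (95% interval 66.2 to 72.8) in control and 25.7% (95% interval 23.5 to 28.1) in stretched. Here the difference lay in the coding sum, in which 1 model went from 0 to 705 counts. One retained-intron model of Tra2a went from 980 to 181 and another from 184 to 251. The gene count of Tra2a differed by 0.07 on the log2 scale.

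Its paralog Tra2b, at chr16:22063299-22084755 on the minus strand, did not differ by the rule, with 86 and 71 NMD counts and shares of 2.45% and 2.86%. Son, which encodes a large nuclear speckle protein, had 2 members lower in stretched, with 1102 and 562 counts in one and 807 and 113 in the other. Srek1, a regulator related to SR proteins, had 102 and 41. Srsf6 was the exception that was higher, with 125 NMD counts in control and 361 in stretched against 4872 and 2658 coding counts, and its NMD model shares its stop with a coding model. Members of Srsf1, Srsf2, Srsf4, Srsf9 and Srrm2 did not differ by ratio, though those of Srsf4 were lower by level (47 and 18, 22 and 8). From FPKM in place of counts, on the log2(FPKM + 1) scale, which understates differences of low transcripts, the ratio of Srek1 differed by -0.67 and that of the first Son member by -0.85, both under 2-fold. Other named ratios that fell short of 2-fold on that scale were those of Nfat5 (-0.91), Rps9 (-0.85), Rbm25 (-0.76), the higher Clk1 member (0.96), Clk2 (-0.79), Slc2a1 (-0.67), Ifi35 (0.39) and Dcp1a (-0.72).

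**Figure D5:**
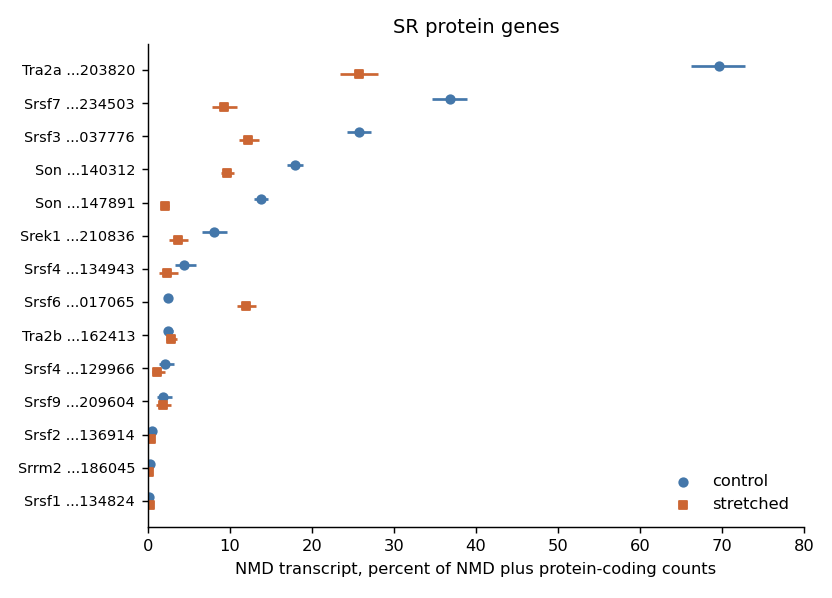
NMD transcript as a percent of NMD plus protein-coding counts (horizontal) for 14 members of SR protein genes, labelled by gene and the last digits of the transcript identifier, with circles for control, squares for stretched and lines for exact 95% intervals of counting error. The shares of Tra2a, Srsf7 and Srsf3 were lower in stretched (25.7%, 9.25% and 12.3%) than in control (69.6%, 36.8% and 25.7%), and that of Srsf6 was higher.

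Members of hnRNP and other splicing factor genes went both ways. Of 44 members from 27 genes, 7 had a higher ratio, 7 a lower one and 30 neither, with a median log2 difference of -0.24. Over all 1638 members 48.2% differed in either direction, a larger share than in this group. Hnrnpl, which binds CA-rich RNA, at chr7:28507966-28521691 on the plus strand, had 2535 NMD counts in control and 1477 in stretched, and coding counts of 2093 and 2884. Its share was 54.8% (95% interval 53.3 to 56.2) in control and 33.9% (95% interval 32.5 to 35.3) in stretched. Its paralog Hnrnpll, at chr17:80336916-80369763 on the minus strand, differed in the other direction, with 417 and 659 NMD counts, 845 and 466 coding counts, and shares of 33.0% (95% interval 30.5 to 35.7) and 58.6% (95% interval 55.6 to 61.5). In each of these paralogs NMD and coding counts moved in opposite directions and the gene count hardly differed, by 0.05 and -0.01.

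Ddx5, an RNA helicase of the spliceosome and of microRNA processing, had 4451 NMD counts in control and 5736 in stretched against 10759 and 6372 coding counts, with shares of 29.3% and 47.4%. Tia1, an RNA-binding protein of stress granules, had 45 and 210 NMD counts. Snrpb, a core protein of the spliceosomal snRNPs, had 27 and 52, and by FPKM its ratio differed by only 0.70. Among the lower ones were Luc7l2 (275 and 129 in one member, 241 and 15 in another), Luc7l (145 and 39) and Rbm25 (107 and 47). The other of the 3 Luc7l2 members did not differ by the rule. Rbm39, a splicing coactivator with 5 members, had none that differed by the rule: the exon 3 transcript had 756 and 1174 counts, the exon 14 transcript 976 and 542, and the exon 4 transcript 336 and 315. Hnrnpa1 had 6091 and 3993 NMD counts and shares of 74.3% and 67.2%.

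The CLK and SRPK kinases, which phosphorylate SR proteins, had 6 members, 1 higher, 3 lower and 2 neither by ratio, where 23.4% of all members were higher and 24.8% lower. Clk1 had both directions within 1 gene, with 121 and 424 counts in one NMD transcript and 52 and 6 in another, against 256 and 416 coding counts. Clk2 had 55 and 21, and Srpk1 189 and 0. This was not rare: of 223 genes with at least 2 members that could be set against coding counts, 79 had at least 2 that differed, in 51 of them all in 1 direction and in 28 in both.

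No gene of the decay machinery met the size rule. Of 27 genes of NMD factors and their partners, 0 differed 2-fold at the gene level, where 5.06% of all genes did, with log2 differences from -0.53 to 0.32 and a median of -0.00. Upf1, the central helicase, had 1520 counts in control and 1640 in stretched. Upf2, which bridges Upf1 to the junction complex, had 1009 and 693, and Upf3b, which binds that complex, 720 and 456. Smg1, the kinase that phosphorylates Upf1, had 4904 and 4501, and Smg6, the endonuclease, 550 and 439. Of 12 exon junction complex genes 0 differed, with a median of -0.08, and none had a member. Exosc10, an exosome nuclease, and Dcp1a, a decapping factor, had a member each, with 107 and 216 counts and with 29 and 0.

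Genes known as NMD targets from other work did not move together. Of 19 counted genes, Ddit3 (365 and 705 counts) and Gadd45b (64 and 143), both stress genes, were higher in stretched and Gadd45a (56 and 24) was lower, where 3.12% of all genes were higher and 1.94% lower. The noncoding snoRNA hosts Gas5 (1745 and 1402) and Snhg1 (982 and 648) did not reach 2-fold. Of the 8 members in this group, 1 of Eif4a2, an initiation helicase, had a higher ratio (199 and 415), and the Rpl3 member, known in human cells as an autoregulated NMD transcript, a lower one (304 and 143), and the other 6 had neither, where 48.2% of all members differed. Sat1, the rate-limiting enzyme of polyamine breakdown, did not differ by the rule, with 255 and 182 NMD counts beside 1182 and 1360 coding counts.

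Ribosomal protein genes had 20 members, of which 0 had a higher ratio, 3 a lower one and 17 neither, with a median log2 difference of -0.38. Both shares are below the 23.4% higher and 24.8% lower of all 1638 members. By level, 3 were higher (1 of Rpl10a and 2 of Rpl13a) and 2 lower, where 21.5% and 20.9% of all members were, so the balance depends on the measure. The lower ratios were those of Rps9 (1819 and 807), Rpl3 and Rpl27a (110 and 7). Many ribosomal protein genes have processed copies in the genome, so these counts are uncertain. Interferon-stimulated genes, of which 34 of 60 were higher at the gene level against 3.12% of all genes, had only 5 members, 3 with a higher ratio, 1 with a lower one and 1 with neither (23.4% and 24.8% over all members). The Irf7 member, from the interferon regulatory factor, went from 0 to 92 counts while coding counts went from 74 to 785. Its ratio differed by 4.13 from counts and by -0.86 on the log2(FPKM + 1) scale. The negative value depends on the 1 added to control values of 0 (NMD) and 2.24 FPKM (coding). Without it the NMD share was 0% in control and 12.3% in stretched by FPKM, and 0% and 10.5% by counts. This member passed the count minimum through the stretched library alone. Samhd1, a nucleotide hydrolase that restricts viruses, had 99 and 303 NMD counts beside 1740 and 1600 coding counts. Ifi35 had 13 and 55, and Sp100, a nuclear body protein, 22 and 6. Of the hypoxia targets, Ldha, which makes lactate, had 1438 and 445 NMD counts against 12929 and 12332 coding counts, and the glucose transporter Slc2a1 62 and 17. The 1 member among ER chaperone and quality control genes, of Edem1, had 2019 and 1802 counts and did not differ by the rule.

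In some genes the NMD transcript was the main one in both libraries. It held more than 50% of NMD plus coding counts in 135 members in control and 132 in stretched, with 72 in both and 123 in 1 library only. Per length, by FPKM, 62 were over 50% in both libraries, and the ratio of 20 of these differed by the rule, against 48.2% of all 1638. A majority in both libraries leaves out members that changed places with coding models. A lower share among the 62 is therefore partly set by their selection and is not a result. Examples of a steady majority, chosen after their values were seen, were Lilrb4a, an inhibitory receptor of myeloid cells, with shares of 94.5% and 96.8%, the heterochromatin protein gene Cbx1 with 82.5% and 83.9%, and Uba7, the activating enzyme of ISG15, with 94.4% and 93.0%. The NMD count of Lilrb4a was 1642 in control and 2052 in stretched, that of Cbx1 862 and 781, and that of Uba7 338 and 541.

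Most genes had 1 member (1146 of 1369), 169 had 2, and Tmem234, with 7, and Dmtf1, with 6, had the most. The members of Dmtf1, a cyclin D-binding transcription factor, ran from one with 0 and 102 counts to one with 54 and 13, while the coding counts were 650 and 473. Those of Tmem234 ran, by ratio, from one with 8 and 33 to one with 79 and 30. In Rabggtb, a subunit of the Rab prenylation enzyme with 5 members, 3 were higher by ratio and 2 did not differ. Of these 2, 1 was lower by level (420 and 151). All 5 overlapped another counted gene on the same strand. In Nubp2, also with 5, 3 were lower by ratio and 2 did not differ, of which 1 was higher by level (8 and 21). Summed over the members of each gene, the NMD to coding ratio was higher in 293 genes, lower in 330 and neither in 717 of 1340.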

How the data were processed

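Per the labels' protocols, poly(A) RNA was made into dUTP strand-marked libraries. StringTie and the build GRCm39 are named in the submitters' processing notes; the aligner, tool versions and strand setting are not stated in the labels. The deposited transcript table holds estimated counts and FPKM values for each transcript, with its length, per the file headers; the authors' counts equalled FPKM times length times 1 constant per library, rounded up (within 0.05), for 99.98% of transcripts in each library. Control columns were assigned to the sample titled NC. The deposited gene counts were scaled with edgeR 4.0.16 TMM in R 4.3.3, and 0.5 was added to every count before ratios were formed. Ratios carry exact conditional 95% intervals (Python 3.11.15, SciPy 1.17.1), and shares have Clopper-Pearson or Wilson intervals. With 1 library per group no p-value was computed. The scripts were tested on simulated counts in which 200 members were changed. Exon structures came from GENCODE M21 (GRCm38) and gave no coordinates; coordinates are those of genes in the deposited table (GRCm39).

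Named transcripts were the 12 of highest count, the 12 widest higher and 12 widest lower ratios with at least 50 NMD and 50 coding counts, members in 10 gene lists (those past either rule, otherwise the 2 of highest count), genes with the most members, and examples at the limit; 1 of them is not reported here. Members and lists were chosen with earlier results of these data known. Alternatives were other count minimums, FPKM, other scalings (DESeq2 1.42.0 size factors, library totals), other denominators, a prior of 5, and 2 added after the data were seen: members with over 200 own bases, and members without same-strand overlaps (355 overlap).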

Additional observations from a re-analysis of the deposited data

How the results depend on the processing

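No paired analysis was possible because each group has 1 library, and for the same reason no replicate could be left out. The pooled NMD share in control and stretched was 7.49% and 7.28% with no count minimum, 17.33% and 16.96% with at least 50 counts, 20.4% and 20.0% with at least 100, 15.0% and 14.9% from FPKM, 12.6% and 12.4% against all other transcripts of the gene, 11.7% and 11.5% without the 10 members of highest count, 17.3% and 17.1% over members with more than 200 own bases, and 14.8% and 13.2% without members overlapping a same-strand gene. Members higher and lower by count numbered 238 and 228 with at least 50 counts, 161 and 148 with at least 100, 185 and 159 from FPKM, and 89 and 75 with more than 200 own bases. By ratio they numbered 191 and 202 with at least 100 counts, 225 and 241 from FPKM, and 91 and 92 with more than 200 own bases. Fewer members enter under the higher minimums and the own-base limit by construction. The numbers of members from FPKM rest on log2(FPKM + 1) without an interval, and the median member had 1.30 FPKM in control. Adding 1 shrinks the differences of such low transcripts, so these numbers are not an independent check of the counts. With no minimum the median log2 difference was 0.13 by count and 0.024 by ratio, against -0.02 and -0.08. The 0.13 is the value that scaling gives to any transcript with equal counts in both libraries. It therefore reflects ties among the 2751 models with 1 to 19 counts and is not a higher level in stretched. Of 116 named members, FPKM left 99 on the same side, took 15 below the rule, moved 1 and reversed Irf7, at -0.86. That reversal depends on the 1 added to each FPKM value. Counts rebuilt without rounding up changed 1, which then met the rule.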

Other observations

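Transcripts of the biotype non_stop_decay, which lack a stop codon and are cleared by another surveillance pathway, were outside the comparisons. Of 25 listed, 12 had a count and 1 had at least 20: a transcript of Zbtb38, a zinc finger protein that binds methylated DNA, with 16 counts in control and 53 in stretched beside 650 and 513 coding counts of that gene. NMD models under 20 counts summed to 6999 counts in control and 6513 in stretched. Of 10855 genes with a protein-coding transcript of at least 20 counts, 3259 have an NMD model in the table and 1336 had a member.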
